A study of Homo sapiens with 4 samples.

Results

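SPH and SA are sister lines of the human colorectal cancer cell line DLD1, and they carry the same label, mesenchymal. SPH was established from colonospheres, the floating clusters that colon cancer cells form in suspension, and SA from colonies grown in soft agar, where cells divide without attaching to a surface. Parental DLD1 is labelled epithelial, as is METS, a line established from a lung metastasis of a xenograft. No transgene or drug is stated for any line, and all 4 were grown in the same McCoy's 5A medium with FBS, penicillin and streptomycin. The comparison described here sets SPH against SA, which are 2 of the 4 lines, and gives DLD1 and METS beside them. Of 57746 genes listed in the expression table, the 11431 with at least 1 RPKM in the higher of SPH and SA were compared. RPKM is a read count divided by gene length and by the depth of the library. The difference used throughout is log2(RPKM + 1) in SPH minus the same in SA, a scale on which the folds of weakly expressed genes come out smaller than their RPKM ratios. Each line has 1 library, so no difference has a replicate check, no test between the lines was possible, and each line stands for 1 derivation. Where 4 values follow without line names, they are RPKM in SPH, SA, DLD1 and METS in that order, and a value in brackets after them is the log2 difference of SPH from SA.

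Epithelial to mesenchymal transition is the programme by which epithelial cells loosen their junctions and take up features of motile cells, such as the intermediate filament vimentin. Growth as spheres and growth in soft agar are both used in colorectal cancer to select cells that survive without a substrate, and sphere culture is also used to enrich for cells with stem cell properties.

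Common mesenchymal and epithelial markers, chosen here, hardly separated SPH from SA. Which markers the shared label rests on is not given in the sources used here. VIM, which encodes vimentin, stood at 12.48 RPKM in SA and 12.19 in SPH, against 0.18 in DLD1 and 0.22 in METS. CDH1, which encodes E-cadherin, stood at 94.47 in SA and 97.33 in SPH, beside 115.27 in DLD1 and 102.67 in METS. EPCAM was likewise high in all 4 lines, with 231.1 RPKM in SPH and 222.22 in SA, beside 212.2 in DLD1 and 262.59 in METS. Both lines thus hold vimentin RNA together with RNA of the epithelial adhesion genes. Of 31 mesenchymal markers, 13 reached 1 RPKM in both lines. In 10 of these 13 both lines stood above DLD1, and 11 of the 13 differed between SPH and SA by less than 0.25 on the log2 scale. Other defining mesenchymal genes were low in both lines: ZEB1, a repressor of epithelial genes, stood at 0.26 RPKM in SA and 0.23 in SPH, CDH2 (N-cadherin) at 0.18 and 0.21, and ZEB2 is listed at 0 in all 4 lines. Among the mesenchymal markers S100A4, a calcium-binding protein of motile cells, differed most between the lines. It stood at 52.40 RPKM in SPH and 28.49 in SA, beside 8.56 in DLD1 and 304.62 in METS, a difference of 0.86 between SPH and SA. Its highest value was therefore in a line labelled epithelial. The 8 keratins that entered had a median difference of 0.05, and KRT5, a basal keratin low in DLD1 and METS (0.13 and 0.07 RPKM), was level at 4.96 in SA and 5.15 in SPH.

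Depth and sample composition gave little to tell the libraries apart. At 1 RPKM a 1 kb gene model held about 48.45 reads in SA and 52.95 in SPH, against 53.85 and 50.35 for DLD1 and METS, read from the spacing between neighbouring low values. Mitochondrially encoded transcripts took 25.5% to 26.6% of the summed values, and 10920 to 11238 genes reached 1 RPKM per line. None of the 10 fibroblast, 10 leukocyte or 5 erythroid markers entered. Their summed levels in SA and SPH were 0.68 and 0.98 RPKM for fibroblasts, 0.83 and 1.31 for leukocytes, and 0.14 and 0.08 for erythroid cells. The 7 endothelial markers found summed to 2.19 and 2.25 RPKM, and the 6 neural ones to 4.0 and 3.91. Gene models with higher GC content and shorter models were slightly higher in SPH. With genes split into 5 equal bins, the median difference ran from -0.04 at the lowest GC content to 0.09 at the highest, and from 0.06 at the shortest exon length to -0.03 at the longest.

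Across the 11431 genes SPH and SA correlated with r = 0.990 and rho = 0.988 (log2 levels, across genes, which are not replicates). The middle 95% of differences lay between -0.37 and 0.46. At least a 2-fold difference was seen in 30 genes, 0.262% of those compared, with 15 higher in SPH (0.131%) and 15 lower (0.131%). SH3BGRL alone reached 4-fold (0.00875%). The split of directions was not fixed. Over the 24 of these genes with an annotated length and GC content, 11 were higher and 13 lower before any correction. The same annotated genes of the table gave 9 higher and 13 lower after correction for GC content, and 9 and 17 after correction for exon length. Rescaling without mitochondrially encoded genes gave 11 and 17 over all genes. These counts include genes that were under 2-fold before. At 1.5-fold the count was 212 genes, of which 141 were higher in SPH. Of the 30, 20 bear a gene name and 10 bear a clone-type, repeated or pseudogene name. An exon length was found for 24 of the 30, and for each of these the 95% counting interval of the ratio excluded equal levels. Such an interval is an exact binomial one over estimated reads and covers counting error only, not the spread between cultures. It is computed from the same values by which the genes were picked, so it adds no separate support for these differences. Closest to the limit, ODAM lay just inside at -1.0, and VAMP2 just outside at 0.99, with 1.74 RPKM in SA and 4.46 in SPH.

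**Figure D1:**
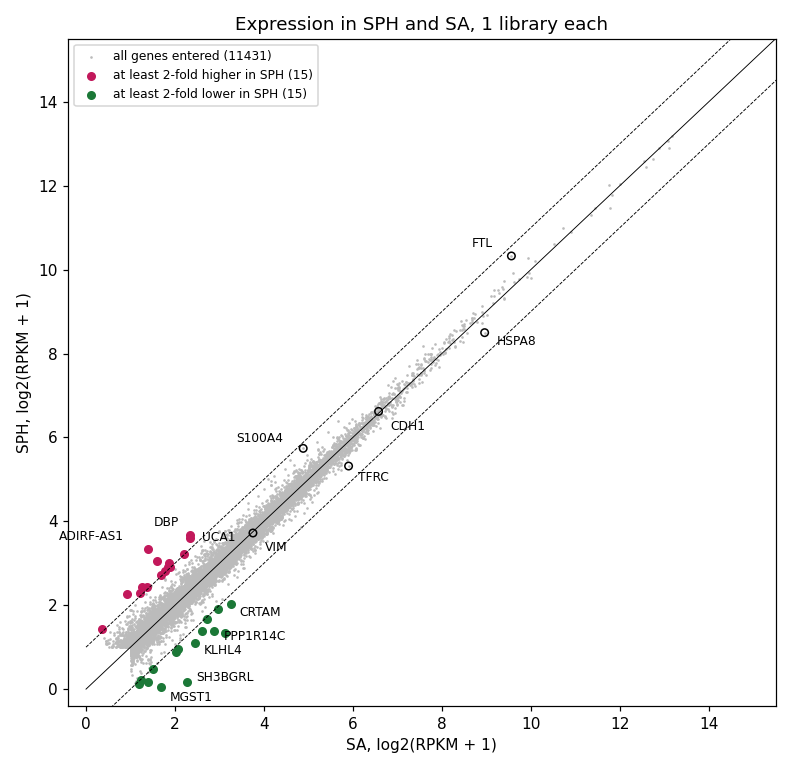
Each point is a gene, with its level in SA on the horizontal axis and in SPH on the vertical axis, both as log2(RPKM + 1), 1 library each. The solid line marks equal levels and the dashed lines 2-fold; the 15 genes higher in SPH and the 15 lower lie at low levels, while VIM and CDH1 lie on the line of equality and FTL, TFRC, HSPA8 and S100A4 stand off it at higher levels.

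The clearest differences were genes with almost no RNA in SPH. SH3BGRL, a small protein of the thioredoxin-like fold, stood at 0.12 RPKM in SPH and 3.82 in SA, beside 6.16 in DLD1 and 14.26 in METS. SPH was the low line, and the other 3 were all above 3 RPKM. The difference of -2.11 corresponds to an RPKM ratio of 31.8 between SA and SPH, with a counting interval of 18.6 to 55.9 on about 426 and 15 reads. Its paralogs did not share this pattern: SH3BGRL2 stood at 17.36 RPKM in SA and 16.99 in SPH, and SH3BGRL3 at 55.75 and 53.14.

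MGST1, the microsomal glutathione transferase that conjugates electrophiles and reduces lipid peroxides, stood at 0.03 RPKM in SPH and 2.22 in SA, beside 4.88 in DLD1 and 8.14 in METS. SPH was again the low line, and the order of the other 3 was the same as for SH3BGRL. The difference was -1.64, a ratio of 74.0 between SA and SPH (counting interval 41.5 to 142). The long exon union of MGST1 in the annotation used here makes its read estimate of 12 in SPH uncertain, and the deposited value is itself rounded to 0.01. MGST2 and MGST3, related membrane enzymes, stood at 4.14 and 7.96 RPKM in SA and at 4.63 and 8.58 in SPH. Of 38 glutathione and redox genes that entered, SH3BGRL and MGST1 were the only ones past 2-fold, beside 0.262% of all genes compared. In this group 20 genes were above SA and 18 below, with a median of 0.07, beside 51.2% above and 48.3% below over all genes.

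SH3BGRL lies on the X chromosome head to head with HMGN5, which encodes a nucleosome-binding protein and is transcribed from the opposite strand. HMGN5 stood at 0.06 RPKM in SPH and 0.62 in SA, beside 1.89 in DLD1 and 0.23 in METS. It did not reach 1 RPKM in SA or SPH and so was not among the genes compared. Like SH3BGRL it was lowest in SPH, but in METS the 2 genes stood apart, with HMGN5 low and SH3BGRL at its highest. The stretch between their RefSeq starts is printed because a single short window holds the upstream sequence of both genes (GRCh38.p14, chrX:81201914-81202101, plus strand, 188 bases). Capitals mark its 9 CpG dinucleotides, the sites of DNA methylation in mammals. Methylation was not measured, and the build differs from the authors' hg19.
SH3BGRL and HMGN5 shared upstream stretch: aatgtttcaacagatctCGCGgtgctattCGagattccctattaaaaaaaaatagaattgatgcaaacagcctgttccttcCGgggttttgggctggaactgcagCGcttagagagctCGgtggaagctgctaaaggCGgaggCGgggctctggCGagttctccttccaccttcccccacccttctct

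Further along the X chromosome the values did not move as a block. Among the genes that reached 1 RPKM in any line, BRWD3, next to HMGN5, stood at 2.59 RPKM in SA and 2.79 in SPH. RPS6KA6, next to SH3BGRL on the other side, stood at 1.31 RPKM in DLD1 and is listed at 0 in SA, SPH and METS. APOOL, beyond it, stood at 3.36 RPKM in SA and 3.05 in SPH. ZNF711, a zinc finger factor, stood at 0.86 RPKM in SPH and 2.36 in SA, beside 2.30 in DLD1 and 3.94 in METS (-0.85). KLHL4, a Kelch-repeat protein beyond it, stood at 1.14, 4.44, 2.27 and 48.40 (-1.35). Between these lay POF1B (5.62 in SA and 4.78 in SPH) and CHM (2.38 and 2.44). Genes low in SPH were thus interspersed with level ones, and the median over 309 X-linked genes was -0.02. The 5 expressed genes on either side of MGST1 on chromosome 12 lay between -0.48 (SLCO1B3) and 0.35 (ARHGDIB).

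**Figure D2:**
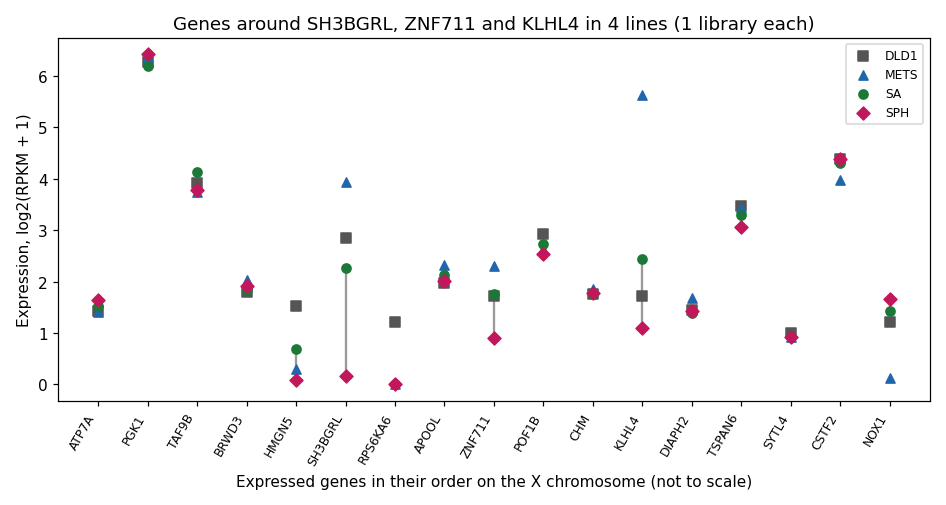
Genes at 1 RPKM or more in any line are drawn in their order on the X chromosome, without scale, with the level in each of 4 lines as log2(RPKM + 1) on the vertical axis and a grey bar joining SA and SPH. SH3BGRL, ZNF711 and KLHL4 are lowest in SPH and highest in METS, while neighbours such as BRWD3, CHM and CSTF2 are level between SA and SPH.

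The other 8 named genes at least 2-fold lower in SPH came from several functions. PPP1R14C, an inhibitor of protein phosphatase 1, stood at 1.60 RPKM in SPH and 6.36 in SA, beside 6.46 in DLD1 and 4.90 in METS (-1.50). CRTAM, an immunoglobulin-type adhesion molecule known from T cells, stood at 3.10, 8.52, 6.79 and 4.36 (-1.22). NFIB, a transcription factor of the nuclear factor I family, stood at 0.86, 3.07, 4.85 and 2.19 (-1.13). In these 3 genes SPH was below each of the other lines. SBSPON, a secreted protein with somatomedin B and thrombospondin domains, stood at 2.77, 6.83, 5.91 and 2.69 (-1.05). SLC6A20, a transporter of imino acids such as proline, stood at 2.21, 5.55, 6.97 and 4.18 (-1.03). SGPP2, a phosphatase of sphingosine 1-phosphate, stood at 0.40, 1.82, 1.88 and 3.35 (-1.01). SBSPON was as low in METS as in SPH, whereas SGPP2 was highest there. ODAM, a secreted protein of dental epithelium, stood at 0.17, 1.34, 0.34 and 0.00, so that SA was the only line above 1 RPKM.

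SERF1B belongs to a pair of nearly identical copies, and its value cannot be taken alone. It stood at 0.94 RPKM in SPH and 3.17 in SA, beside 1.11 in DLD1 and 1.95 in METS (-1.10). Its copy SERF1A went the other way, with 3.04, 1.16, 2.90 and 3.49 (0.90). Summed, the copies gave 4.33 in SA and 3.98 in SPH, a difference of -0.10. How reads were divided between the copies was not tested.

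Just under the 2-fold limit, several regulators were also lower in SPH. JUN, a subunit of the AP-1 transcription factor, stood at 3.44 RPKM in SPH and 7.38 in SA, beside 9.04 in DLD1 and 13.66 in METS (-0.92). FOS, its partner in AP-1, stood at 4.33, 2.53, 1.94 and 2.62, higher in SPH by 0.59. JUN and FOS thus differed between SPH and SA in opposite directions. FOSL1, another member of the FOS family, was more abundant and closer to level, with 27.06, 24.03, 26.61 and 28.57 (0.16). NR2F1, an orphan nuclear receptor named here after its value was seen, stood at 1.24, 3.31, 3.24 and 2.24 (-0.94). PTGER2, a prostaglandin E2 receptor, stood at 0.41, 1.65, 2.36 and 1.55 (-0.91), and GRB10, an imprinted adaptor of insulin signalling, at 2.13, 4.26, 4.76 and 8.72 (-0.75). Each of these 3 was lowest in SPH.

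CYR61 and F3, targets of the YAP and TAZ coactivators that respond to tension and attachment, were lower in SPH at higher levels. CYR61, a matrix protein that binds integrins, stood at 17.24 RPKM in SPH and 28.72 in SA, beside 42.39 in DLD1 and 24.56 in METS (-0.70). F3, tissue factor, stood at 18.81, 30.44, 35.99 and 24.83 (-0.67). SPH held the lowest value of both. Of 21 YAP and TAZ targets that entered, 14 were below SA and 7 above, beside 48.3% below over all genes. Their median was -0.07, beside 0.01 over all genes. ANKRD1 stood at 6.89 RPKM in SA and 4.99 in SPH, and CTGF at 9.65 and 7.77, whereas GADD45A stood in the other direction at 14.57 and 20.49 (0.46). No member of the list was 2-fold apart, beside 0.262% of all genes compared.

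Among genes higher in SPH, the largest difference was in ADIRF-AS1, a long noncoding RNA. It stood at 9.15 RPKM in SPH and 1.62 in SA, beside 2.11 in DLD1 and 0.95 in METS (1.95), and SPH was the only line above 3 RPKM. The ratio was 5.65 (counting interval 5.11 to 6.26). ADIRF-AS1 overlaps ADIRF on the opposite strand and MMRN2, and whether counting used strand is not given in the sources used here. ADIRF was level, with 4.0 RPKM in SA and 3.80 in SPH, and MMRN2 was low, with 0.73 and 1.21.

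DBP, a transcription factor that binds D-boxes and cycles with the circadian clock, followed with 11.81 RPKM in SPH and 4.08 in SA, beside 3.30 in DLD1 and 2.02 in METS (1.33). SPH was the high line by a ratio of 2.89 over SA (counting interval 2.72 to 3.08). The overlapping gene SPHK2 stood at 3.18 RPKM in SA and 2.75 in SPH. UCA1, a long noncoding RNA first described in bladder cancer, stood at 11.20, 4.03, 8.53 and 4.48 (1.28). Here DLD1 was nearer to SPH, and SA was the lowest line.

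CDA, cytidine deaminase, which salvages pyrimidines and inactivates cytidine analogue drugs, stood at 6.98 RPKM in SPH and 2.65 in SA, beside 3.14 in DLD1 and 2.01 in METS (1.13). SEMA6B, a transmembrane semaphorin, stood at 4.44, 1.57, 2.45 and 0.74 (1.08). PPP1R14D, an inhibitor of protein phosphatase 1, stood at 3.91, 1.31, 2.83 and 1.01 (1.09). All 3 were highest in SPH and lowest in METS. The inhibitors PPP1R14C and PPP1R14D belong to 1 gene family, and they differed between SPH and SA in opposite directions.

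SERPINB5, the serpin maspin, stood at 8.27 RPKM in SPH and 3.60 in SA, beside 3.56 in DLD1 and 8.59 in METS (1.01). METS was close to SPH, and DLD1 close to SA. POLD4, the small subunit of DNA polymerase delta, stood at 6.48, 2.71, 4.14 and 3.80 (1.01), while RAD9A, which overlaps it, was 14.20 in both SA and SPH. RNASEK-C17orf49, a readthrough of 2 neighbouring genes, stood at 4.41, 1.38, 4.56 and 3.08 (1.18). Reads of RNASEK (20.80 RPKM in SA and 30.82 in SPH) and C17orf49 (7.97 and 11.24) cannot be told apart from those of the readthrough. After correction for GC content POLD4 (0.94) and SEMA6B (0.95) lay under 2-fold, as did ODAM on the lower side (-0.96), and without mitochondrially encoded genes POLD4 (0.98) and SERPINB5 (0.97) did.

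Of the 15 genes higher in SPH, SPH was the highest of 4 lines in 11, and SA the lowest in 7. Of the 15 lower genes, SPH was the lowest of 4 in 13, and SA the highest in 6. Over all 11431 genes SPH was highest in 31.0% and lowest in 19.6%. DLD1 lay between SA and SPH in 11 of the 15 higher and 9 of the 15 lower genes, and in 3355 of all 11431. Since the higher and lower genes were picked by SPH against SA, these counts partly restate the choice and describe the picked genes only. The values over all genes are therefore no like comparison for them. DLD1 and METS entered the choice at no point. DLD1 lay nearer to SA than to SPH in 8 of the 15 higher and 9 of the 15 lower genes, and METS in 10 and 10. Over all genes compared these shares were 54.4% for DLD1 and 55.3% for METS. Over all genes compared, the difference between SPH and SA and that between METS and DLD1, which share no library, correlated with r = -0.05 and rho = -0.07.

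Several clock genes were higher in SPH together with DBP. In the mammalian clock CLOCK and BMAL1 (ARNTL) bind E-boxes and activate the PER, CRY, NR1D and BHLHE4 genes, whose products feed back on them. DBP and TEF are output factors of the same loop. The clock list was drawn up after the values were seen. NR1D1, the repressor REV-ERB alpha, stood at 28.37 RPKM in SPH and 16.92 in SA, beside 11.47 in DLD1 and 5.68 in METS (0.71). BHLHE40 stood at 10.61, 5.31, 6.67 and 8.22 (0.88), PER1 at 4.32, 2.64, 2.78 and 1.81 (0.55), and TEF at 9.67, 6.91, 5.97 and 3.64 (0.43). Each of these 4 was highest in SPH. The activators differed less: ARNTL stood at 2.99 RPKM in SA and 2.89 in SPH, CLOCK at 1.85 and 1.62, and NPAS2 at 1.13 in both, while ARNTL2, the paralog of ARNTL, stood at 4.61 in SA and 3.83 in SPH (-0.22). PER2, PER3 and NR1D2 differed by 0.10, 0.03 and 0.10, and CRY1 and CRY2 by 0.22 and 0.23. Of 20 clock genes that entered, 12 were above SA and 7 below, beside 51.2% above over all genes. The median was 0.10, beside 0.01 over all genes. DBP alone was past 2-fold, beside 0.262% of all genes compared. NR1D1 overlaps THRA, which stood at 4.91 RPKM in SA and 6.38 in SPH. The hour at which each culture was harvested is not given in the sources used here, and its part in these values was not tested.

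The upstream sequences of ADIRF-AS1, PER1 and DBP, all higher in SPH, are printed because ADIRF-AS1 carries the motif of the clock activators more than once and DBP, the most different clock gene, carries none in the same window. Each run is the 250 bases before the RefSeq start on the gene's own strand (GRCh38.p14): chr10:86971241-86971490, minus strand, for ADIRF-AS1; chr17:8152405-8152654, minus strand, for PER1; and chr19:48637380-48637629, minus strand, for DBP. Capitals mark the E-box CACGTG, which reads the same on both strands.
ADIRF-AS1: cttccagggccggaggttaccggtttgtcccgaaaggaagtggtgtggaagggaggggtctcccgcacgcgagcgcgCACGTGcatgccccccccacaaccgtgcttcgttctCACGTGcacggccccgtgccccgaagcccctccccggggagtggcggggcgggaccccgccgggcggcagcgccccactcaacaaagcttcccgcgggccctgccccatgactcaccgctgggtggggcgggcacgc
PER1: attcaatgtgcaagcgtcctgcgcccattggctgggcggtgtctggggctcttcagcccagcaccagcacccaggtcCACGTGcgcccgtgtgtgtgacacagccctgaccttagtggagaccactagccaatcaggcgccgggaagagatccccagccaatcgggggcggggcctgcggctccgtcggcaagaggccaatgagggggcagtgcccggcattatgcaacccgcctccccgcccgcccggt
DBP: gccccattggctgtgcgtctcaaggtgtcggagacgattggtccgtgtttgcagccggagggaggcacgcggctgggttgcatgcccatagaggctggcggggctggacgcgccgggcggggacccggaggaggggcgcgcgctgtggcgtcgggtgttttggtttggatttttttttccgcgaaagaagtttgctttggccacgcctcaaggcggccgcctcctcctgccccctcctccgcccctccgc
In ADIRF-AS1 the matches lie 173 and 137 bases before the start, and in PER1 the match lies 173 bases before it. TEF has a match 195 bases before the start, and a second start of TEF has 1 at 193 bases. BHLHE40 has a match at 245 bases and BHLHE41 at 48, while NR1D1 has none. Positions were looked up only for genes higher in SPH, so they cannot tie the motif to a direction. The other clock genes are not listed one by one. CACGTG occurs in 6.34% of all 35116 RefSeq windows of this length and in 8.47% of the windows of compared genes. Counted per gene, it occurs in 7.73% of all 27305 genes with a window and in 11.6% of the 8175 compared ones. It occurs in 2 of the 7 genes at least 2-fold higher in SPH that have a window, in 0 of the 9 lower ones, and in 5 of 16 clock genes. A match is a description of letters and not evidence of binding, and a window without one says nothing of binding elsewhere.

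At high levels the differences were smaller, and the named genes are those with the 6 highest and 6 lowest differences at 50 RPKM or more. Genes of iron storage and uptake were among both. FTL, the ferritin light chain, stood at 1281.90 RPKM in SPH and 755.33 in SA, beside 585.38 in DLD1 and 917.26 in METS (0.76). FTH1, the heavy chain, stood at 1247.03, 981.66, 964.16 and 1222.08 (0.34). TFRC, the transferrin receptor that brings iron into the cell, stood at 38.87, 58.82, 58.92 and 68.25 (-0.59). SPH thus had the highest ferritin chains and the lowest transferrin receptor of the 4 lines. The remaining iron genes were closer to level. Of all 21 that entered, with FTL, FTH1 and TFRC included, 16 were above SA and 5 below, beside 51.2% above over all genes. None reached 2-fold, beside 0.262% of all genes compared, and the median was 0.07. Ferritin and TFRC are also controlled at translation and RNA stability by iron-regulatory proteins. The RNAs of these, ACO1 and IREB2, differed by 0.07 and -0.03. The activity of the proteins was not measured, and their part in the ferritin and TFRC values was not tested.

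Among polyamine genes the largest differences lay in both directions. SAT1, which acetylates spermidine and spermine for export, stood at 83.35 RPKM in SPH and 49.40 in SA, beside 57.40 in DLD1 and 61.14 in METS (0.74). SMOX, spermine oxidase, stood at 3.39, 2.38, 3.21 and 2.55 (0.38). ODC1, which makes putrescine, stood at 109 RPKM in SPH and 139 in SA, beside 124 in DLD1 and 124 in METS (-0.35). AMD1, which supplies the aminopropyl groups, stood at 42.83, 57.72, 50.04 and 55.29 (-0.42). SAT1 and SMOX were highest in SPH, and ODC1 and AMD1 were lowest there. SMS, spermine synthase, stood at 42.63 RPKM in SA and 44.73 in SPH (0.07), and PAOX, another oxidase of polyamines, was under 1 RPKM in both, with 0.35 in SA and 0.09 in SPH. The group of 10 had a median of 0.11, with 7 genes above SA and 3 below, beside 51.2% above over all genes. Iron and polyamine lists were also drawn up after the values were seen.

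**Figure D3:**
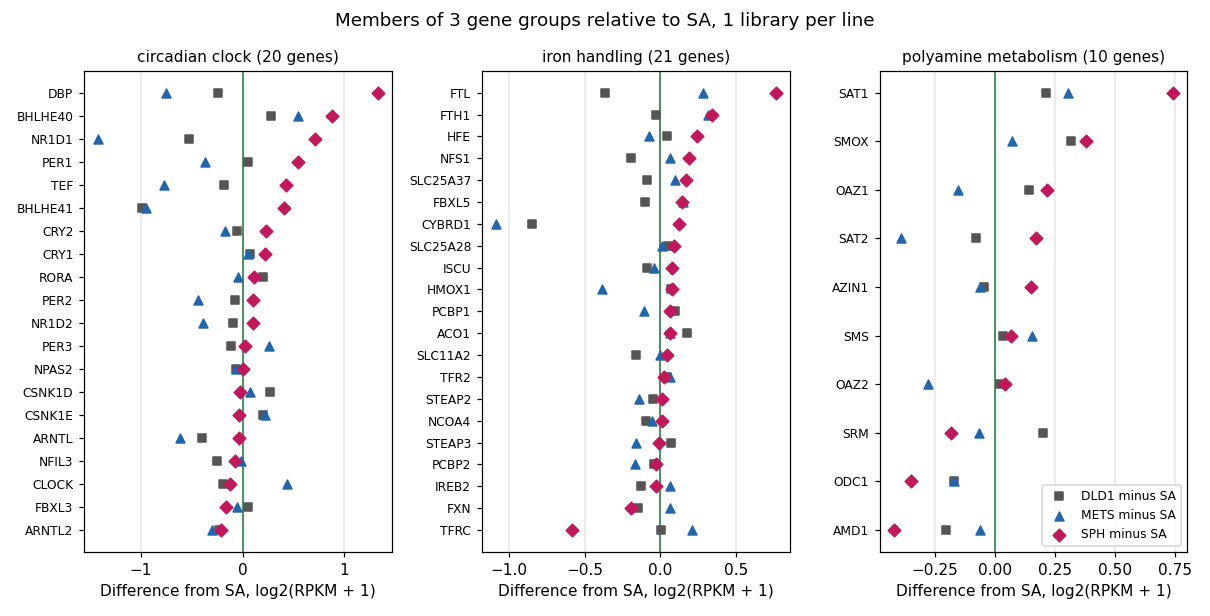
For members of the clock, iron and polyamine groups, the horizontal axis gives the difference from SA on the log2(RPKM + 1) scale for DLD1, METS and SPH, 1 library each, with SA as the vertical line at 0. In SPH, DBP, BHLHE40, NR1D1, FTL and SAT1 lie to the right and TFRC, ODC1 and AMD1 to the left of SA, while ARNTL, CLOCK and most iron genes lie near 0.

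The other genes of this level were of mixed function. HSPA8, the constitutive cytosolic chaperone of the HSP70 family, stood at 360 RPKM in SPH and 497 in SA, beside 464 in DLD1 and 413 in METS (-0.46). Of 23 chaperone genes 16 were below SA and 7 above, with a median of -0.06, beside 48.3% below over all genes. HSPB1 stood in the other direction with 229 RPKM in SA and 297 in SPH. SEC61A1, the channel of the endoplasmic reticulum, stood at 52.54 RPKM in SA and 39.89 in SPH (-0.39). SUPT4H1, an elongation factor subunit, stood at 51.79 and 36.65 (-0.49) and overlaps RNF43, which stood at 26.83 and 34.38. PHLDA1, which responds to ERK signalling, stood at 35.63 RPKM in SA and 58.79 in SPH (0.71). SLC25A6, a mitochondrial exchanger of ADP and ATP, stood at 189 and 289 (0.61), and TMEM141, a small membrane protein, at 42.51 and 68.54 (0.68).

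Genes of protein synthesis and of DNA replication differed little one by one but mostly in 1 direction per group. Of 75 cytosolic ribosomal protein genes, 71 were above SA and 4 below, with a median of 0.18, and the highest difference was 0.35 in RPL13A (573 RPKM in SA and 731 in SPH). Of 41 DNA replication genes, 34 were below SA and 7 above, with a median of -0.11. This list does not hold POLD4, the polymerase delta subunit named above, which was higher in SPH (1.01). Among the lower genes of the list were POLA1, a subunit of DNA polymerase alpha, with 8.82 RPKM in SA and 6.61 in SPH, and MCM10, an initiation factor, with 11.14 and 8.42. G1 regulators leaned the same way, with 13 of 19 below SA (median -0.10), CCNE1 at 10.16 RPKM in SA and 6.93 in SPH among them. The 34 mitosis genes had a median of 0.02, with 20 above and 14 below (-0.03 after rescaling without mitochondrially encoded genes). Over all genes 51.2% were above SA, and the median was 0.01. No member of these 4 groups was 2-fold apart, beside 0.262% of all genes compared. Of the ribosomal genes 66 had a mean of SA and SPH of at least 100 RPKM, and the 280 genes of all kinds at that level had a median of 0.08, with an upper quartile of 0.19. The part of level, GC content and exon length in these medians was not tested.

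Groups of energy metabolism and detoxification differed from one another. Over all genes 51.2% were above SA, and the median was 0.01. Of 31 glycolysis and hypoxia genes, 22 were above SA, with a median of 0.10. SLC16A3, which exports lactate, stood at 30.06 RPKM in SPH and 16.90 in SA, beside 12.80 in DLD1 and 14.29 in METS (0.80). NDRG1, a hypoxia-induced gene, stood at 5.80, 3.16, 2.34 and 2.54 (0.71). SPH was the highest line for both, although SLC2A1 and SLC2A3, the glucose carriers, differed by -0.25 and -0.33. DDIT4, an inhibitor of the mTORC1 kinase, stood at 36.66 RPKM in SPH and 21.21 in SA, beside 49.96 in DLD1 and 60.36 in METS (0.76). The 71 nuclear genes of the respiratory chain had a median of 0.08, with 54 above SA, and the 13 mitochondrially encoded messenger RNAs a median of -0.02, with 6 above and 7 below. Of 18 ABC transporters 7 were above SA and 11 below (median -0.08). The median exon length was 2615 bases for the nuclear respiratory chain genes and 7582 for the ABC transporters. The part of exon length and GC content in the medians of these groups was not tested. Of 23 targets of the antioxidant regulator NRF2, a list drawn up after the values were seen, 17 were above SA, with a median of 0.23. NQO1, a quinone reductase, stood at 152 RPKM in SPH and 109 in SA, beside 77.3 in DLD1 and 130 in METS (0.48), and BLVRB at 35.94, 25.26, 31.82 and 24.11 (0.49). GCLM, SLC7A11 and HMOX1, targets of the same factor, differed by -0.02, -0.07 and 0.08.

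Junction genes were balanced as a group and differed member by member. Of 26 epithelial adhesion and junction genes, 13 were above SA and 13 below, with a median of 0.00. TJP3, a scaffold of tight junctions, stood at 12.58 RPKM in SPH and 6.92 in SA, beside 10.89 in DLD1 and 7.84 in METS (0.78). SA was the lowest line. Claudins were divided: CLDN1 stood at 0.56, 1.36, 2.48 and 1.47 (-0.60), whereas CLDN3 stood at 15.22, 9.45, 15.52 and 8.76 (0.63). Of 32 proteases and inhibitors, 24 were above SA, with a median of 0.13, beside 51.2% above over all genes. SERPINB5 alone was past 2-fold, beside 0.262% of all genes compared. SERPINA1, the serpin alpha-1-antitrypsin, stood at 4.36 RPKM in SPH and 2.26 in SA, beside 1.44 in DLD1 and 1.06 in METS (0.72).

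Markers tied to sphere growth and to intestinal identity did not single out SPH. Of 11 stem cell and colonosphere markers that entered, 5 were above SA and 6 below, with a median of -0.05 and a range from -0.47 (BMI1) to 0.35 (RNF43). WNT targets and antagonists had a median of -0.06, with 9 of 20 above SA. Of 11 intestinal differentiation genes, 7 were below SA, with a median of -0.20, which became 0.22 where a minimum of 5 RPKM was set. The trefoil peptides of goblet cells were among the 4 above SA: TFF3 stood at 12.45 RPKM in SPH and 6.94 in SA, beside 7.33 in DLD1 and 7.44 in METS (0.76), and TFF1 at 10.45, 6.31, 5.89 and 6.11 (0.65). Both were highest in SPH.

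**Figure D4:**
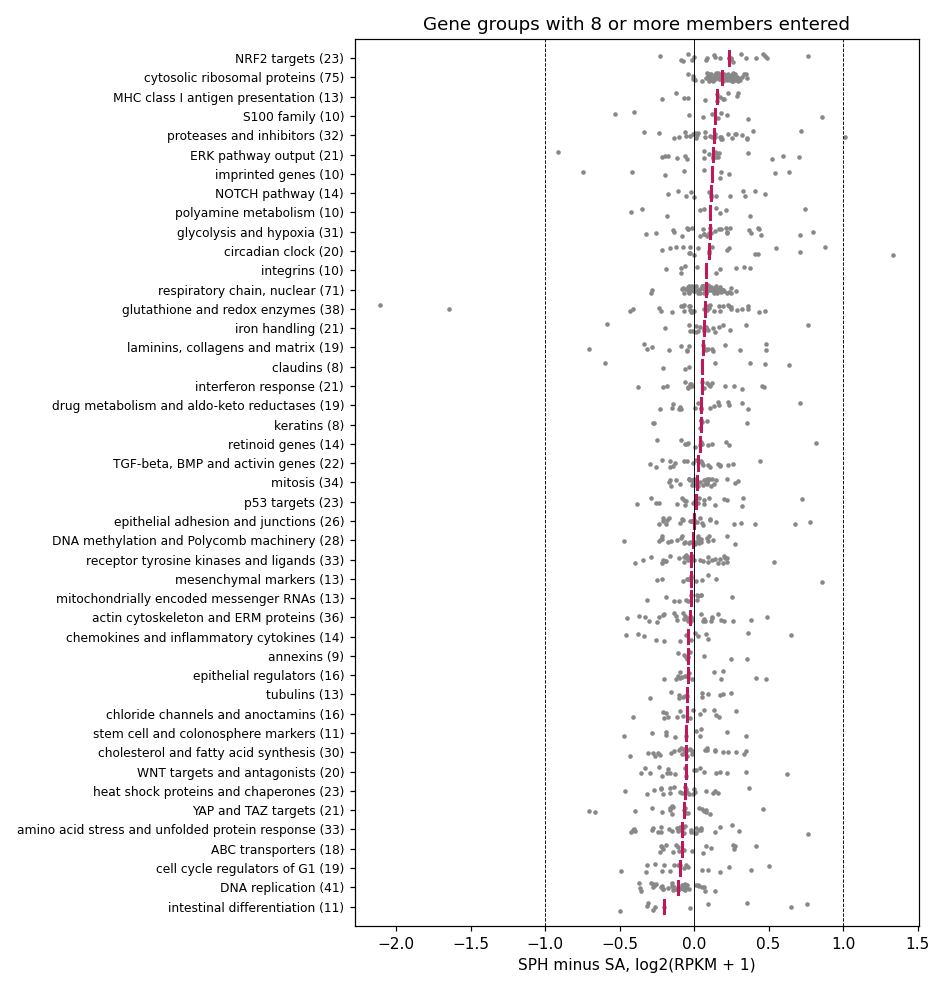
Each grey point is a member gene of a group with 8 or more members compared, placed by its difference between SPH and SA on the log2(RPKM + 1) scale; the coloured bar is the group's median, the number in brackets its members, and the dashed lines mark 2-fold. Medians stay between -0.20 (intestinal differentiation) and 0.23 (NRF2 targets), and the members beyond the dashed lines are SH3BGRL, MGST1, DBP and SERPINB5.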

How the data were processed

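For the aligner, the counter, the annotation and the handling of strand: not given in the sources used here. Per the submitters' processing notes, the build was hg19. The authors deposited 1 table of values per gene and line, which were read as RPKM from the values themselves (not whole, rounded to 2 decimals, with steps that scale with gene length). Whether reads or fragments were counted is not stated. From these, log2(RPKM + 1) in SPH minus SA was computed for genes with at least 1 RPKM in the higher line, and counted at 2-fold and 4-fold. With 1 library per line no test was run. The members, gene lists and rules were chosen with earlier results of these data known.

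Named genes were all past 2-fold, the 6 highest and 6 lowest differences at 50 RPKM or more, the 10 highest and 10 lowest with a pseudocount of 0.1, up to 3 members per list, a few chosen markers with their paralogs, and 5 expressed neighbours on each side of SH3BGRL and MGST1. Clone-type, small RNA and pseudogene names were only counted, and some genes within this rule are not reported here. The clock, iron, polyamine, NRF2 and chaperone lists were added after the values were seen, so more of their members are named, as are VAMP2, NR2F1 and overlapping or paired genes.

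Depth was estimated from the common step of low values over 3 windows of gene length. Reads per gene were estimated with exon lengths of GENCODE 29, found for 10729 of 11431 genes (447 by synonym), and the ratio's 95% interval is exact (Clopper-Pearson). The exon lengths behind the deposited values are not given. Where the union used here is longer, reads are overestimated and the interval is too narrow. Promoter windows are RefSeq GRCh38.p14. Counting of differences was tested on simulated data. Alternatives were pseudocounts of 0.1 and 5, no minimum or 5 RPKM, median-of-ratios scaling, rescaling without mitochondrially encoded genes, a lowess correction (span 0.3) for GC content, and, added after seeing the data, one for exon length. Python 3.11.15, pandas 2.3.3, scipy 1.17.1 and statsmodels 0.14.6 were used.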

Additional observations from a re-analysis of the deposited data

How the results depend on the processing

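No paired analysis was possible because each line has 1 library and the labels carry no replicate numbers. The count of genes at least 2-fold apart rests on the pseudocount: 30 genes became 117 with 0.1 (66 higher and 51 lower in SPH, 13 of them 4-fold) and 1 with 5 (1 higher, 0 lower, 0 at 4-fold), and all 30 were among the 117. A minimum of 5 RPKM left 16 genes, 6 of them lower and 0 at 4-fold. Both corrections use only the 10729 annotated genes, which hold 24 of the 30, with 11 higher. There, correcting for GC content gave 22 genes, 9 of them higher, and correcting for exon length 26, again 9 higher; 21 and 22 of these were among the 30. None of the 20 named genes past 2-fold changed direction under these settings, but this could hardly have come out otherwise. A pseudocount cannot turn a direction, and median-of-ratios scaling and rescaling without mitochondrially encoded genes shifted log2 ratios by only 0.0065 and 0.04. Median-of-ratios scaling and no minimum each gave 30 genes, and rescaling without mitochondrially encoded genes 28. The medians of ribosomal protein genes (0.14 to 0.19) and replication genes (-0.15 to -0.09) kept their sign throughout, while medians near 0, such as those of mitosis, matrix and mesenchymal genes, changed sign under some settings. Values under 0.1 RPKM rest on few reads, and the spread between cultures is unknown.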

Other observations

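Further genes with large differences were chosen after their values were seen and stand for no group. TSPAN1, a tetraspanin of epithelial surfaces, stood at 31.36 RPKM in SPH and 16.05 in SA, beside 28.41 in DLD1 and 54.31 in METS (0.92). PRSS8, the membrane serine protease prostasin, stood at 26.27, 14.92, 27.26 and 21.27 (0.78). EEF1A2, a translation elongation factor, stood at 43.07, 23.09, 42.61 and 15.01 (0.87). In TSPAN1 and PRSS8 SA was the low line, and SPH was close to DLD1. TXNIP, which binds thioredoxin and restrains glucose uptake, stood at 32.99, 17.57, 16.88 and 32.90 (0.87), so that SPH and METS were alike. KCNQ1, a potassium channel of colonic epithelium, stood at 9.70, 4.97, 5.12 and 3.50 (0.84). ANGPTL4, a secreted lipase inhibitor, stood at 2.72, 0.99, 0.84 and 0.43 (0.90), and MIR210HG, the host transcript of a hypoxia-induced microRNA, at 5.02, 2.44, 3.15 and 2.69 (0.81). These 3 were highest in SPH.

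On the other side, MUC5AC, a secreted mucin, stood at 6.34 RPKM in SPH and 10.51 in SA, beside 11.90 in DLD1 and 31.61 in METS (-0.65). COCH, a secreted matrix protein, stood at 2.62, 5.07, 8.24 and 7.33 (-0.75), and AMIGO2, an adhesion molecule, at 5.39, 9.51, 10.57 and 9.76 (-0.72). SPH was the lowest line in all 3. H19, an imprinted noncoding RNA, spanned the widest range, with 14.67 RPKM in SPH, 9.74 in SA, 58.04 in DLD1 and 2892.87 in METS, and differed between SPH and SA by 0.55.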
